A study of Mus musculus with 6 samples.

Results

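The genes described here encode matricellular proteins, which are secreted into the extracellular matrix but serve to tune how cells bind to it rather than to bear load. They are the thrombospondins (Thbs1, Thbs2, Thbs3 and Thbs4), SPARC (Sparc) and its relative hevin (Sparcl1), tenascin C (Tnc), periostin (Postn), the TGF-β-induced protein (Tgfbi) and osteopontin (Spp1). They were taken by name, as the probe sets to which the annotation gives exactly 1 of these symbols. Of the 10 genes, 9 were measured, each by 1 probe set, out of 28853 probe sets and 19938 named genes; no probe set was matched to Spp1 in the annotation used, so that it has no value here. The RNA came from MS5, a mouse bone marrow stromal cell line, grown for 7 days in medium with serum and either PD184352, a MEK inhibitor, at 1 μM (MEKi) or DMSO (diluent). There were 3 independent experiments, numbered by the series in the sample titles, with 1 array for each condition in each of them, 6 arrays in all. MS5 is a single line, and the labels name no allele or agent beyond these. All values are RMA values, which are log2 intensities, as normalized by the authors; an array gives no absolute amount, so that levels of different genes are not set against each other.

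MEK is the kinase that activates ERK, and matricellular genes are known to be induced in fibroblasts and stroma during injury and repair, some of them by TGF-β and by growth factors that signal through ERK. Thrombospondins bind CD47, CD36, heparan sulphate and integrins, and thrombospondin 1 can release active TGF-β from its latent complex. SPARC and hevin bind collagen, tenascin C loosens the hold of cells on fibronectin, and periostin and the TGF-β-induced protein share fasciclin domains that bind integrins. In bone marrow, stromal cells display such proteins to blood cells.

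MEKi changed 2 of the 9 measured genes, in opposite directions, at an adjusted p under 0.05 from limma, a linear model with moderated variances that was fitted to all probe sets with the experiment as a block. Thbs1 rose and Sparcl1 fell, while Thbs2, Thbs3, Thbs4, Sparc, Tnc, Postn and Tgfbi did not pass, with adjusted p-values from 0.156 to 0.888. Among all 28853 probe sets, 0.104% were called higher and 0.0555% lower. Of the 9 genes, 8 moved in the same direction in all 3 experiments, 5 upwards (Thbs1, Thbs2, Thbs3, Sparc and Tnc) and 3 downwards (Sparcl1, Postn and Tgfbi), against 31.8% of all probe sets with such a direction. These directions are those of the deposited values, whose median difference over all probe sets was −0.003, 0.1004 and 0.0138 in experiments 1, 2 and 3. The rise of Sparc in experiment 2, 0.063, was below that median. The rise of Thbs2 in experiment 3, 0.014, was about equal to it. The diluent and MEKi arrays did not overlap for 5 of the genes, higher for Thbs3 and Tnc and lower for Sparcl1, Postn and Tgfbi, against 7.86% of all probe sets. The genes were chosen with earlier results of these data known, so that these counts are descriptions and no test of the group. The median log2 fold change of the 9 genes was 0.06, and that of all probe sets 0.04. In RNA of whole cultures, fewer cells of a type and less RNA per cell cannot be told apart.

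**Figure D1:**
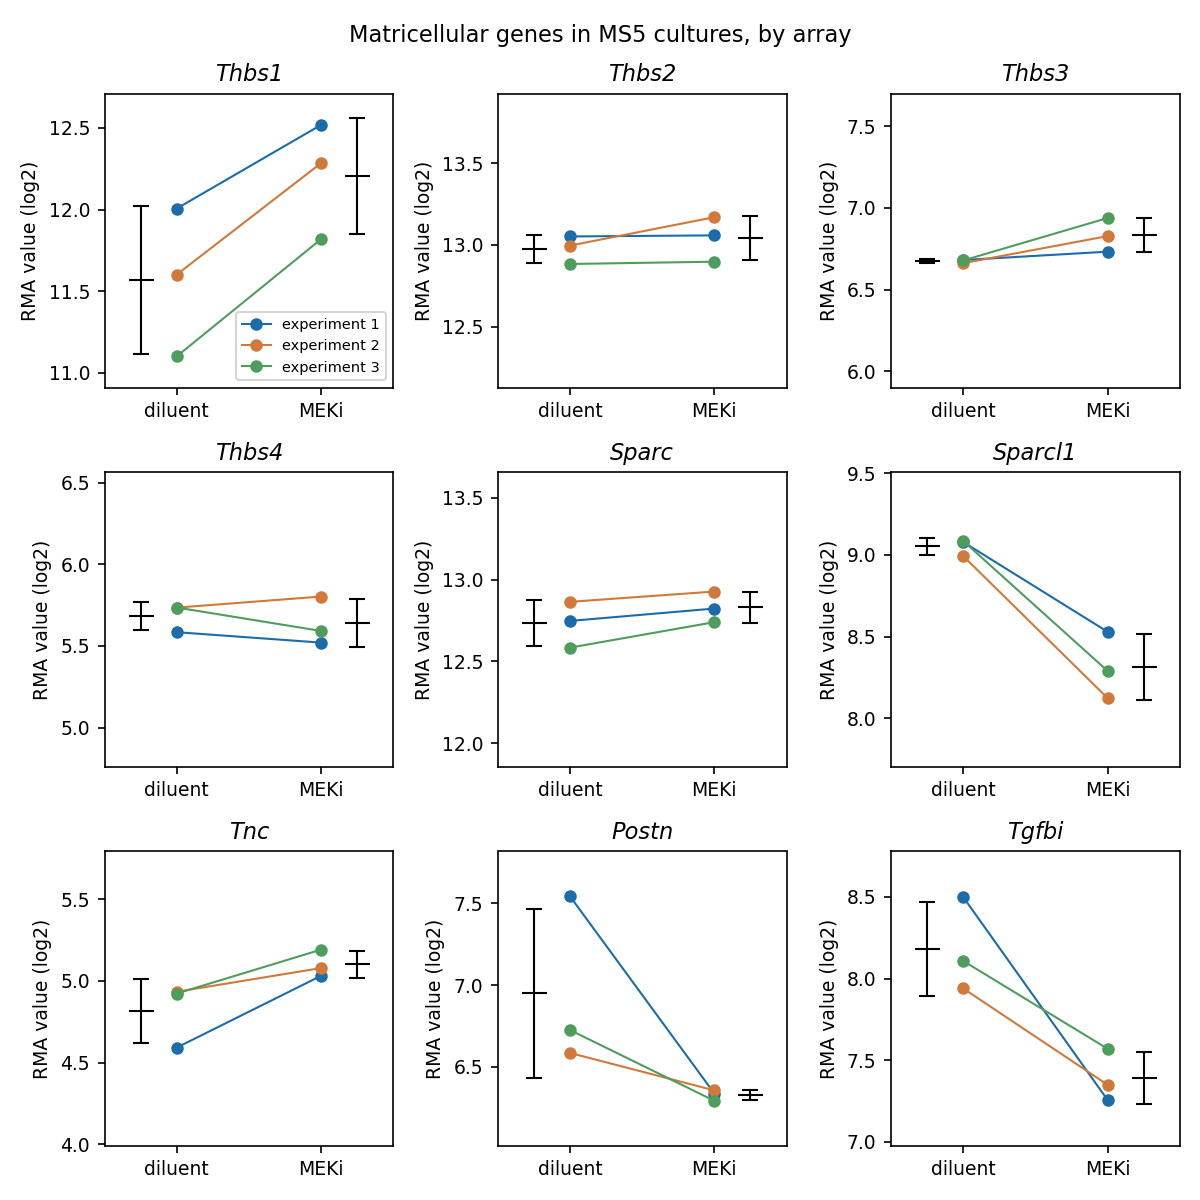
RMA values on the log2 scale (y axis, the same span in every panel) of the 9 measured genes in diluent and MEKi cultures (x axis), 1 point per array. Lines connect both arrays of each experiment, and black bars are the mean ± SD of 3 arrays; Thbs1 rose by 0.51 to 0.72 in each experiment although its groups overlap, and the Sparcl1 groups lie apart.

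Thbs1, the thrombospondin found in platelets and in many stromal cells, was read at 12.01, 11.60 and 11.10 in the diluent cultures of experiments 1, 2 and 3, and at 12.52, 12.28 and 11.82 in the MEKi cultures. Each MEKi culture lay above the diluent culture of its own experiment, but the groups overlapped, since the diluent culture of experiment 1 was above the MEKi culture of experiment 3. The differences were 0.51, 0.68 and 0.72, which gave a log2 fold change of 0.64 (standard error 0.079, 95% confidence interval 0.45 to 0.82, n = 3 experiments), or 1.55 times the diluent level (1.37 to 1.77), higher in 3 of 3 experiments (adjusted p = 0.0489 from limma). The experiments differed more than the treatment did, the diluent cultures spanning 0.90 on the log2 scale. Among 28853 probe sets Thbs1 was at place 45 by p-value, of 46 that passed.

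The other thrombospondins did not pass. Thbs2, which like thrombospondin 1 forms trimers and restrains the growth of blood vessels, was at 13.05, 13.00 and 12.88 with diluent and at 13.06, 13.17 and 12.90 with MEKi. Its cultures were nearly level within experiments 1 and 3, and its log2 fold change was 0.06 (95% confidence interval −0.12 to 0.25, adjusted p = 0.833 from limma). Thbs3, which belongs to the pentameric thrombospondins, was at 6.68, 6.66 and 6.68 with diluent and at 6.73, 6.83 and 6.94 with MEKi. All its MEKi values lay above the diluent values, which spanned only 0.019, yet the log2 fold change of 0.16 (95% confidence interval −0.026 to 0.34) did not pass (adjusted p = 0.574 from limma). Thbs4, a pentameric thrombospondin of tendon and muscle, was at 5.58, 5.73 and 5.74 with diluent and at 5.52, 5.80 and 5.59 with MEKi. Its cultures went down in experiments 1 and 3 and up in experiment 2, with a log2 fold change of −0.046 (95% confidence interval −0.23 to 0.14, adjusted p = 0.888 from limma). The rise in experiment 2, 0.068, was below the median difference of all probe sets in that experiment, 0.10.

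The response of Thbs1 exceeded that of Thbs2 by 0.51, 0.51 and 0.70 on the log2 scale in experiments 1, 2 and 3 (mean 0.57 ± 0.11, SD, n = 3). It exceeded that of Thbs3 by 0.46, 0.52 and 0.46 (0.48 ± 0.033) and that of Thbs4 by 0.58, 0.61 and 0.86 (0.68 ± 0.15). For each of these 3 pairs the exact permutation test over experiments (two-sided, sign changes) gave p = 0.25, the smallest that 3 experiments allow.

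Sparcl1 encodes hevin, the longer relative of SPARC, and it fell, whereas Sparc, for the collagen-binding glycoprotein that is abundant in bone, did not pass. Sparcl1 was at 9.08, 8.99 and 9.09 in the diluent cultures of experiments 1, 2 and 3 and at 8.53, 8.12 and 8.29 in the MEKi cultures. The diluent cultures lay within 0.092 of each other and all MEKi cultures lay below them. Sparcl1 fell by 0.55, 0.87 and 0.79 in the 3 experiments, which gave a log2 fold change of −0.74 (standard error 0.088, 95% confidence interval −0.94 to −0.53, n = 3 experiments), or 60.0% of the diluent level (adjusted p = 0.0454 from limma). Sparc was at 12.75, 12.86 and 12.58 with diluent and at 12.82, 12.93 and 12.74 with MEKi. Its 2 groups overlapped, and although each MEKi value was above its own diluent value, the log2 fold change was 0.098 (95% confidence interval −0.074 to 0.27, adjusted p = 0.715 from limma). The response of Sparc exceeded that of Sparcl1 by 0.62, 0.93 and 0.95 (mean 0.84 ± 0.18, SD, n = 3; exact permutation p = 0.25, two-sided, the smallest possible).

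The calls of Thbs1 and Sparcl1 lay just inside the threshold: both were lost without experiment 1 (adjusted p = 0.105 and 0.0802 from limma), without experiment 2 (0.17 and 0.163) and without experiment 3 (0.115 and 0.0799), although the log2 fold change stayed between 0.60 and 0.70 for Thbs1 and between −0.83 and −0.67 for Sparcl1. Without the replicate block neither passed (adjusted p = 0.9995 for both from limma). Over 12 other ways of processing, plotted as adjusted p by setting, both kept their direction in 12 and passed in 4. In part of these, such as without the block, the log2 fold change was the same by construction, so the direction could not change.

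**Figure D2:**
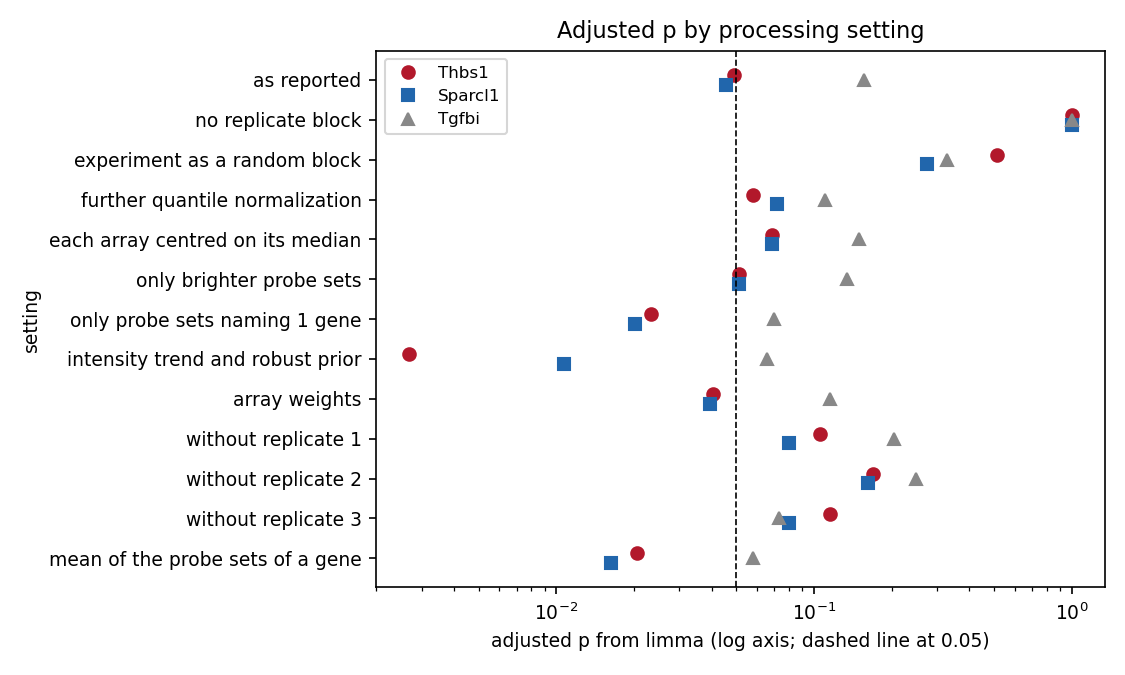
Adjusted p from limma on a log axis (x axis) for Thbs1, Sparcl1 and Tgfbi under each processing setting (y axis), with a dashed line at 0.05. Thbs1 and Sparcl1 lie left of the line as reported and in 4 of 12 alternatives, and Tgfbi in none.

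**Figure D3:**
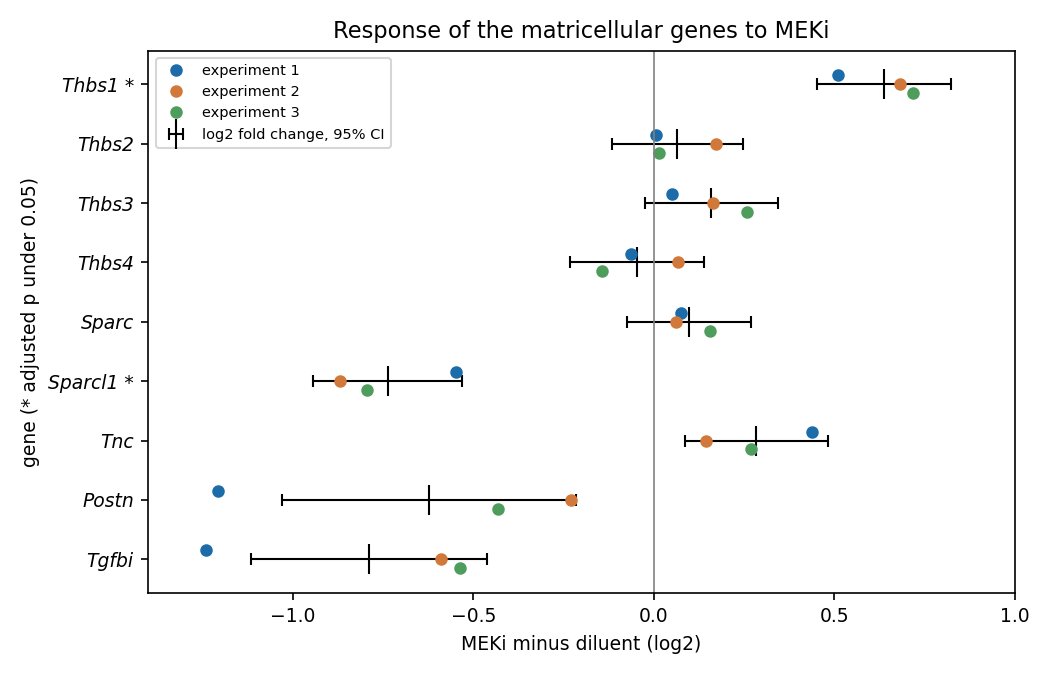
Difference between the MEKi and the diluent array in log2 units (x axis), for each of the 9 measured genes (y axis), with 1 coloured point per experiment; black bars are the log2 fold change with its 95% confidence interval from limma. Thbs1 lies at 0.64 and Sparcl1 at −0.74, while the points of Postn and Tgfbi for experiment 1 lie at −1.21 and −1.24, far below those of experiments 2 and 3.

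The fasciclin domain genes Tgfbi and Postn also had values below 0 in all 3 experiments, but with larger standard errors than Sparcl1, and did not pass. Tgfbi was at 8.50, 7.94 and 8.11 with diluent and at 7.26, 7.35 and 7.57 with MEKi. The groups did not overlap, and the differences were −1.24, −0.59 and −0.54, which gave a log2 fold change of −0.79 (standard error 0.139, 95% confidence interval −1.12 to −0.46, adjusted p = 0.156 from limma). Postn, whose product binds integrins and collagen in periosteum and healing tissue, was at 7.54, 6.59 and 6.73 with diluent and at 6.34, 6.36 and 6.29 with MEKi. The MEKi cultures lay within 0.064 of each other, whereas the diluent culture of experiment 1 stood well above the other diluent cultures, the group spanning 0.96. The log2 fold change of Postn was −0.62 (standard error 0.173, 95% confidence interval −1.03 to −0.22, adjusted p = 0.32 from limma), and it was −0.33 without experiment 1 and −0.82 without experiment 2. That of Tgfbi was −0.56 without experiment 1.

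Over the 6 arrays, Postn and Tgfbi had a Pearson correlation of 0.90, and Postn and Tnc one of −0.97. These are the highest and the lowest of the 36 pairs of measured genes. The arrays share their experiments and treatments, so that the correlations are descriptions. The diluent culture of experiment 1, in which Postn and Tgfbi stood highest, also had the lowest mean level of the 5 measured adipocyte markers, 9.38 against 10.50 and 10.17 in experiments 2 and 3 (9.73, 10.43 and 10.65 with MEKi). It had the highest value of Dcn, the matrix proteoglycan decorin, at 7.34 against 5.47 and 5.76. The part of these levels in the values of Postn and Tgfbi was not tested.

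The 250 bases before the start of the transcripts are shown for Postn and Tgfbi, the pair with the highest correlation, from RefSeq on GRCm38.p6. Whether these bases bear on that correlation was not tested. Capitals mark a GC box (GGGCGG) in Tgfbi and a TATA box (TATAAA) in Postn, for which the downstream start was used. The window before the upstream Postn start held neither. Tgfbi was taken from the plus strand of chr13:56609336-56609585 and Postn from the plus strand of chr3:54360857-54361106.
Tgfbi: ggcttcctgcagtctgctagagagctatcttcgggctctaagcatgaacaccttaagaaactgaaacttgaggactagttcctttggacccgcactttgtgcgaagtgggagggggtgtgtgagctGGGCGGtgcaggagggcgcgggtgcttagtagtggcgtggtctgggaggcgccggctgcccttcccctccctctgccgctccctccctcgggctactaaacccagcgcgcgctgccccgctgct
Postn: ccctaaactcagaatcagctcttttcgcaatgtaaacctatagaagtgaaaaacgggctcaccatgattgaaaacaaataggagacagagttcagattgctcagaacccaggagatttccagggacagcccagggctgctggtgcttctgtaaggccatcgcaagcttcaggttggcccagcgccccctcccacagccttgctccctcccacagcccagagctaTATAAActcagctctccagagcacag
The GC box starts 124 bases before the Tgfbi start and the TATA box 26 bases before the Postn start. On either strand, the AP-1 site TGAGTCA, the cAMP response element TGACGTCA and the ETS site CCGGAAGT, which were chosen with the results known, were in none of the 11 windows listed for 8 of the 10 genes. Of all 32851 windows of this length, 4.46%, 1.55% and 2.88% held them. The letters TATAAA were in 5 of the 11 windows (12.4% of all) and GGGCGG in 5 (32.7% of all), on either strand and at any place. The 2 windows of Tnc share 171 bases and hold the same TATAAA and the same GGGCGG, so that each was in 4 genes. TATAAA lay 26 bases before the start in Postn, 211 in Spp1, 126 in Thbs2 on the reverse strand, and 126 and 205 before the 2 starts of Tnc. Whether these letters act as a TATA box was not tested. Where the letters are missing, nothing follows for the factors that bind such sites. Thbs1 and Sparcl1 are not in the promoter table.

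Tnc, a hexameric glycoprotein of embryonic and injured tissue, was at 4.59, 4.93 and 4.92 with diluent and at 5.03, 5.08 and 5.19 with MEKi. The groups did not overlap, and its differences were 0.44, 0.14 and 0.27. Its log2 fold change of 0.28 (standard error 0.085, 95% confidence interval 0.085 to 0.48) did not pass (adjusted p = 0.353 from limma). Tnc and Thbs4 were the 2 measured genes whose mean over the 6 arrays lay below the median of all probe sets, and the other 7 lay above it.

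The methods of the study name an analysis of variance per gene and a change of 1.5-fold or more, and print the p threshold as a percentage, 0.05%. The study also used pairwise Tukey tests, crossed its experiments and reported a list of changed genes. Its crossing was not repeated in that form, and the counts that follow are not that list. With that threshold taken as printed, 0.0005, an ordinary analysis of variance without the experiment selected 0 of the 9 genes and 0% of all probe sets. At 0.05 it selected 2, Sparcl1 (unadjusted p = 0.00373 from that analysis of variance) and Tgfbi (0.0142), against 0.152% of all probe sets, and it gave 0.128 for Thbs1. With limma's unadjusted p, in which the experiment is a block, 2 genes were selected at 0.0005, Thbs1 and Sparcl1, against 0.239% of all probe sets. At 0.05 limma's unadjusted p selected 4, Thbs1 upwards and Sparcl1, Postn and Tgfbi downwards, against 0.537%. None of the 9 changed at least 1.5-fold in each single experiment, as 0.146% of all probe sets did, since Thbs1 rose by 0.51 and Sparcl1 fell by 0.55 in experiment 1, less than 1.5-fold.

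The genes that work with these proteins were read from lists of receptors, partners and relatives. Of 24 receptor genes, Itga1, the α chain of an integrin that binds collagen, rose and 23 did not pass. Itga1 was at 8.12, 8.87 and 8.12 with diluent and at 8.95, 9.52 and 9.10 with MEKi, all above the diluent values, and its log2 fold change was 0.82 (standard error 0.087, adjusted p = 0.0351 from limma). Itgb3, a chain of integrins that bind thrombospondins, tenascin C, periostin and osteopontin, had differences of −1.79, −0.27 and −0.99 and a mean of −1.01 (adjusted p = 0.25 from limma). Sdc4, a heparan sulphate proteoglycan, had a value of −0.50 (adjusted p = 0.378). The thrombospondin receptors Cd47 (−0.045) and Cd36 (0.27) did not pass, and Cd36 ranged from 7.54 in the diluent culture of experiment 1 to 10.63 in that of experiment 2. The median of the receptors was −0.037, with 5 of them higher and 4 lower in all 3 experiments, while 31.8% of all probe sets kept 1 direction. Limma's unadjusted p was at most 0.05 for 5 receptors, a threshold that 9.89% of all probe sets met.

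None of 23 partner and processing genes passed, a group that holds fibronectin, type I collagen, the TGF-β ligands and their latent binding proteins, and the proteases that act on them (unadjusted p from limma at most 0.05 for 5, a threshold that 9.89% of all probe sets met). Its median was 0.065. The log2 fold change was −0.59 for Mmp3, the protease stromelysin (limma, adjusted p = 0.132), 0.57 for Adamts5, which cleaves aggrecan and related proteoglycans (0.204), and 0.52 for Tgfb2, a TGF-β ligand (0.183), each with the same sign in all 3 experiments. None of 18 relatives passed either (unadjusted p at most 0.05 for 2, against the same 9.89% of all probe sets; median 0.036). Among them were Tnr, a tenascin of the nervous system (−0.49, adjusted p = 0.282), Comp, a pentameric thrombospondin of cartilage (0.24, 0.379), and Smoc2, of the SPARC family (−0.17, 0.52). Of 15 TGF-β target genes listed, 12 were measured and none passed (unadjusted p from limma at most 0.05 for 4, against 9.89%). Their median was −0.041. Tagln, the smooth muscle protein transgelin, was at 0.42 with mixed signs (limma, adjusted p = 0.476). Ccn2, the matricellular connective tissue growth factor, was at −0.41 (0.199) and Cdkn2b, a cell cycle inhibitor, at 0.39 (0.188), each with the same sign in all 3 experiments. The groups did not overlap for Ccn2.

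**Figure D4:**
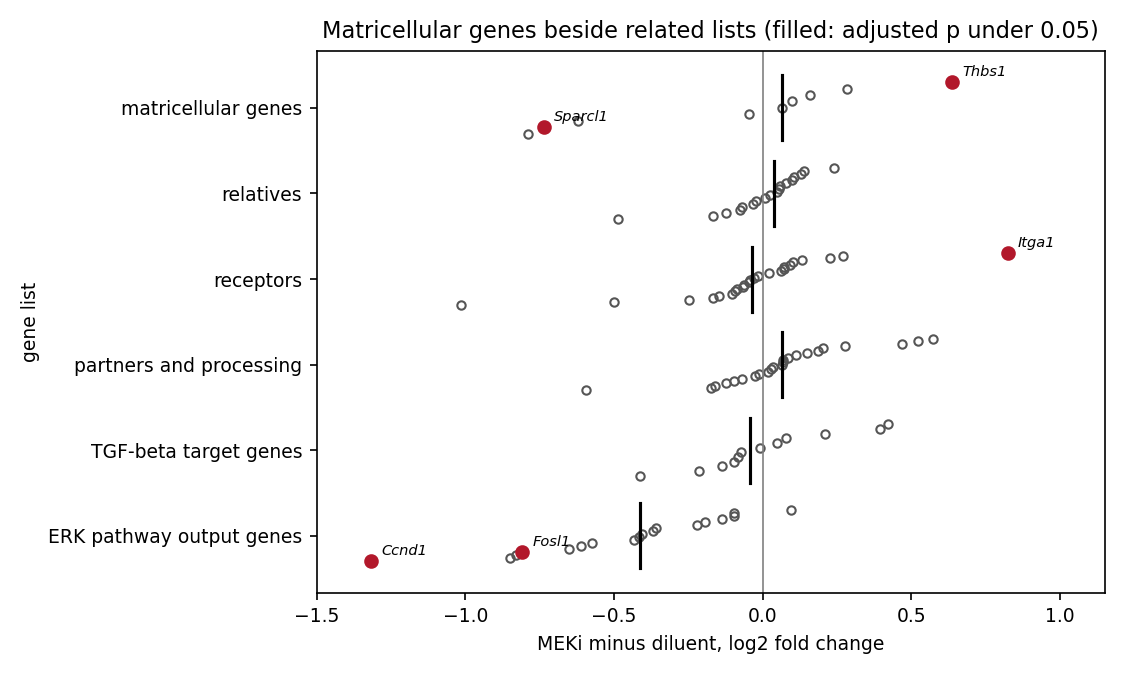
Log2 fold change of MEKi against diluent (x axis) of the 9 matricellular genes and of 5 related lists (y axis), 1 point per gene; filled points have an adjusted p under 0.05 from limma and carry their names, and black bars are medians. In the receptor, partner, relative and TGF-β target lists, Itga1 is the filled point, and the ERK pathway output genes have the lowest median, −0.41.

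Of 18 ERK pathway output genes, Ccnd1 (−1.32, adjusted p = 0.03 from limma) and Fosl1 (−0.81, 0.0319) fell on the log2 scale. The other 16 did not pass, and 0.0555% of all probe sets were called lower. Limma's unadjusted p was at most 0.05 for 12 of the 18, a threshold that 9.89% of all probe sets met. In all 3 experiments 13 of the 18 were lower, while 31.8% of all probe sets kept 1 direction, up or down. The median of an array was between 6.29 and 6.38, and the median difference over all probe sets was −0.003, 0.10 and 0.014 in experiments 1, 2 and 3. Among 11 stromal markers Vim was at 13.21 to 13.27 and Col1a1 at 10.77 to 11.21, whereas Lum, at 3.05 to 3.35, and Thy1, at 5.46 to 5.67, were below the median of every array. None of the stromal markers passed, and neither did any of 8 leukocyte, 6 endothelial, 4 platelet, 4 osteoblast or 5 adipocyte markers that were measured. The lists held 9 leukocyte, 5 platelet, 7 osteoblast and 6 adipocyte markers, so that some have no value here. Without adjustment, limma's p was at most 0.05 for 2 of the stromal, 2 of the leukocyte and 3 of the adipocyte markers and for 0 of the others, against 9.89% of all probe sets. Of the stromal markers, Vcam1, an adhesion molecule for blood cells, had values of 9.98, 10.00 and 9.73 with diluent and 9.24, 9.52 and 9.24 with MEKi. Its groups did not overlap, and its log2 fold change was −0.57 (adjusted p = 0.0942 from limma). That of Dcn was −0.45 with mixed signs and that of Cxcl12, a chemokine that retains blood cells in marrow, 0.22. The adipocyte markers had a median log2 fold change of 0.36. Plin1, a lipid droplet protein, was at 0.51, Adipoq, for the hormone adiponectin, at 0.45 and Fabp4, a fatty acid carrier, at 0.36. The 2 markers not named lay at −0.11 and 0.040. Of the 5, Adipoq alone was higher in all 3 experiments, and the other 4 had mixed signs. In experiment 2, Plin1 was at −0.17 and Fabp4 at −0.021. Adipoq was read at 11.30 to 12.56. The mean level of the leukocyte markers was 5.93 to 6.29 with diluent and 6.03 to 6.19 with MEKi. Within this list Cd68, a lysosomal protein of macrophages, was at 8.96 to 11.41, with differences of −0.93, −0.14 and −0.74 (log2 fold change −0.61, adjusted p = 0.249 from limma). Lyz2, the lysozyme of myeloid cells, had differences of 0.38, 0.27 and 0.62 (0.42, adjusted p = 0.19), and Ptprc, for the pan-leukocyte antigen CD45, was at 4.71 to 5.06. The osteoblast marker Alpl, alkaline phosphatase, had differences of 1.29, −0.59 and 1.22. The part of these markers in the results of Thbs1 and Sparcl1 was not tested.

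Likeness of pattern was measured by the Pearson correlation over the 6 arrays across all named genes. For Thbs1 the most alike were Tsc22d3 (0.997), Rcn2 (0.995) and Dpy19l1 (0.994), none of which passed the test of MEKi, and 426 named genes had a correlation of at least 0.9. For Sparcl1 they were Arhgdib (0.983), Acot11 (0.983) and Smoc2 (0.969), which did not pass either, and 54 named genes reached 0.9. These values describe the 6 arrays only.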

How the data were processed

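RNA of 3 diluent and 3 MEKi cultures of MS5 cells was extracted with Trizol, and 100 ng of each was labelled for an Affymetrix Gene 1.0 ST array. The authors normalized the intensities with RMA (background correction, quantile normalization and summary per probe set) and deposited log2 values; quality control was done in Partek, and versions and genome build are not given in the sources used here. The deposited values were used without filter or further normalization. Probe sets were named by a platform annotation table, and of several probe sets of a gene the one with the highest mean was taken.

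Groups and experiment numbers came from the sample titles. The effect of MEKi was tested by limma 3.58.1 (R 4.3.3; n = 3 experiments), with the experiment as a block and Benjamini-Hochberg adjustment over all 28853 probe sets at a threshold of 0.05, leaving 2 residual degrees of freedom and 5.17 from the prior. The numbers pair the cultures of 1 independent experiment, and the deviations of same-numbered arrays from their group means correlated by 0.81, 0.59 and 0.62. For arrays of unlike numbers the correlations were from −0.61 to 0.21. Deviations from a group mean cancel out within the group, so that negative values for unlike numbers are in part built in. The experiments are cultures of 1 line. The block takes out the level of each experiment, so limma's p-values measure the spread of the differences between MEKi and diluent cultures. Limma moderates that spread by the one seen over all probe sets, and the number of arrays limits the precision. The procedure was tested on simulated data. The members and lists were chosen with earlier results of these data known. Named genes are the members, up to 3 genes of each list by size of change with those past the threshold first, Ccnd1 and Fosl1, and the 3 genes most alike to each called member. Cd47, Cd36, Vim, Col1a1, Lum and Thy1 fall outside this rule and were chosen after their values were seen. The alternatives are in the closing section. Plots were made in Python 3.11.15 (matplotlib 3.10.9).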

Additional observations from a re-analysis of the deposited data

How the results depend on the processing

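In part of the 12 alternatives the log2 fold change of Thbs1 and Sparcl1 was the same by construction, so the direction could not change. These were no block, a random block, brighter probe sets, probe sets naming 1 gene, the trend and the mean of probe sets. With probe sets naming 1 gene and with the mean, the values of both genes were unchanged and fewer were adjusted over (21789 and 19938). Thbs1 and Sparcl1 kept their direction in all 12 alternatives and their calls in 4 of them (only probe sets naming 1 gene, intensity trend with robust prior, array weights, and the mean of the probe sets of a gene), where the count of genes called stayed at 1 higher and 1 lower. Both counts were 0 without the replicate block, when the experiment was a random block, after quantile normalization once more, with array medians set equal and among brighter probe sets (adjusted p of Thbs1 0.9995, 0.513, 0.0581, 0.0684 and 0.0512 from limma, and of Sparcl1 0.9995, 0.274, 0.0719, 0.0684 and 0.0512), and 0 without any 1 replicate. Over all 28853 probe sets, limma called none without the block (907 at an unadjusted p under 0.05), with a random block (2321), with array medians set equal (2780) or without replicate 2 (3063). Receptors called fell from 1 to 0 without the block, with a random block and after either normalization, and to 0 without any 1 replicate. ERK output genes called were 0 without the block, with a random block and with array medians set equal, 5 with probe sets naming 1 gene, with the trend and with the mean of probe sets, 4 with array weights, and 0 to 2 without 1 replicate. With the trend, 1 partner gene, Mmp3, was called (adjusted p = 0.0429 from limma). Members by the methods' rule were 2 at the stricter p, 2 by analysis of variance, 0 by analysis of variance at 0.0005, an alternative chosen after seeing the data, and 0 for 1.5-fold in each experiment, against 4. Thbs4 turned to 0.002 without replicate 3, its range without 1 replicate being −0.1035 to 0.002. The other 7 genes passed in no alternative, the lowest adjusted p being 0.0579 for Tgfbi; Tnc and Thbs4 are not among the brighter probe sets. The cause of these differences was not tested.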
